A study of Homo sapiens with 4 samples.

Results

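The genes of the mitochondrial ribosomal proteins were followed in CAL27 cells with and without CCL20 overexpression. Members were all genes whose symbol is MRPL or MRPS with a number and at most one letter from A to C, which gave 78 of the 29437 genes measured. By their names 49 belong to the large and 29 to the small subunit. CAL27 is a long-established line from a squamous carcinoma of the human tongue, and the chemokine CCL20 acts through the receptor CCR6. The negative control and the CCL20 overexpression line, made by lentivirus, had 2 libraries of polyadenylated RNA each, harvested at 48 h. The labels give neither the content of the control virus nor whether the overexpression line is 1 clone, and nothing in them says that replicates were separate cultures, so p-values measure only the spread between these libraries, which may be technical.

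The mitochondrial ribosome translates the few mRNAs of the mitochondrial genome, all of which encode membrane subunits of the oxidative phosphorylation complexes. All its proteins are encoded in the nucleus, made in the cytosol and imported, so their mRNAs are polyadenylated and counted here like any other. The small subunit holds the mRNA and the decoding centre, and the large subunit holds the peptidyl transferase centre and the exit tunnel. Some members descend from bacterial ribosomal proteins and others are found only in mitochondria.

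Total gene counts lay between 13681862 and 17860695 per library. CCL20 itself had 188 and 202 counts in control replicates 1 and 2 and 372 and 303 in overexpression replicates 1 and 2, a log2 fold change of 0.95 with an SE of 0.21 (edgeR adjusted p = 0.0143). Corrected for mRNA length as described below, its log2 fold change was 0.06 (edgeR adjusted p = 0.917). Summed squamous markers stood at 1306 to 1846 FPKM per library, with KRT14, one of the 12, at only 0.712 to 1.11 FPKM. The 7 fibroblast markers summed to 2.97 to 5.58 FPKM, the 4 endothelial markers to 5.10 to 8.81 FPKM, nearly all of it CDH5, and the 3 immune markers measured to 1.20 to 1.94 FPKM. Over tested coding genes log2 fold change went down with mRNA length (Spearman correlation -0.73 across 10571 genes), and members have short mRNAs. The median annotated mRNA of tested members was 1357 nt, against 2998 nt for the tested coding genes, and what part of the changes below goes with length is given further on.

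Levels of the members differed by about 102 times among the 74 that reached a mean of 1 FPKM. FPKM here is the authors' value, reads scaled by gene length and by the library's total count. The median tested member stood at 21.5 FPKM, at the percentile of 82.3 among the levels of all genes tested, and 54 of the 74 lay between 10 and 50 FPKM. The highest member was MRPS34, a small subunit protein found only in mitochondria, with 80.2 and 90.6 FPKM in control replicates 1 and 2 and 144 and 198 FPKM in overexpression replicates 1 and 2. Among large subunit genes MRPL37 led with 89.0 and 95.8 FPKM in the controls and 121 and 139 with overexpression. MRPL14 had 62.8 and 64.98 in the controls and 106 and 147 with overexpression. For MRPL51 these were 60.0 and 61.9 against 119 and 131. In all 4 genes both overexpression libraries lay above both controls. MRPL3, a protein near the catalytic centre, had 90.8 and 84.5 FPKM in the controls and 101 and 93.0 with overexpression, so its groups lay side by side with little between them. The next small subunit genes by level were MRPS10, at 83.9 and 82.1 against 103 and 85.9 FPKM, and MRPS18B, at 55.6 and 49.0 against 67.7 and 67.4 FPKM. MRPL3 and MRPL14 cannot be ordered, since their means over the 4 libraries differ by less than the spread of MRPL14 between overexpression replicates.

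**Figure D1:**
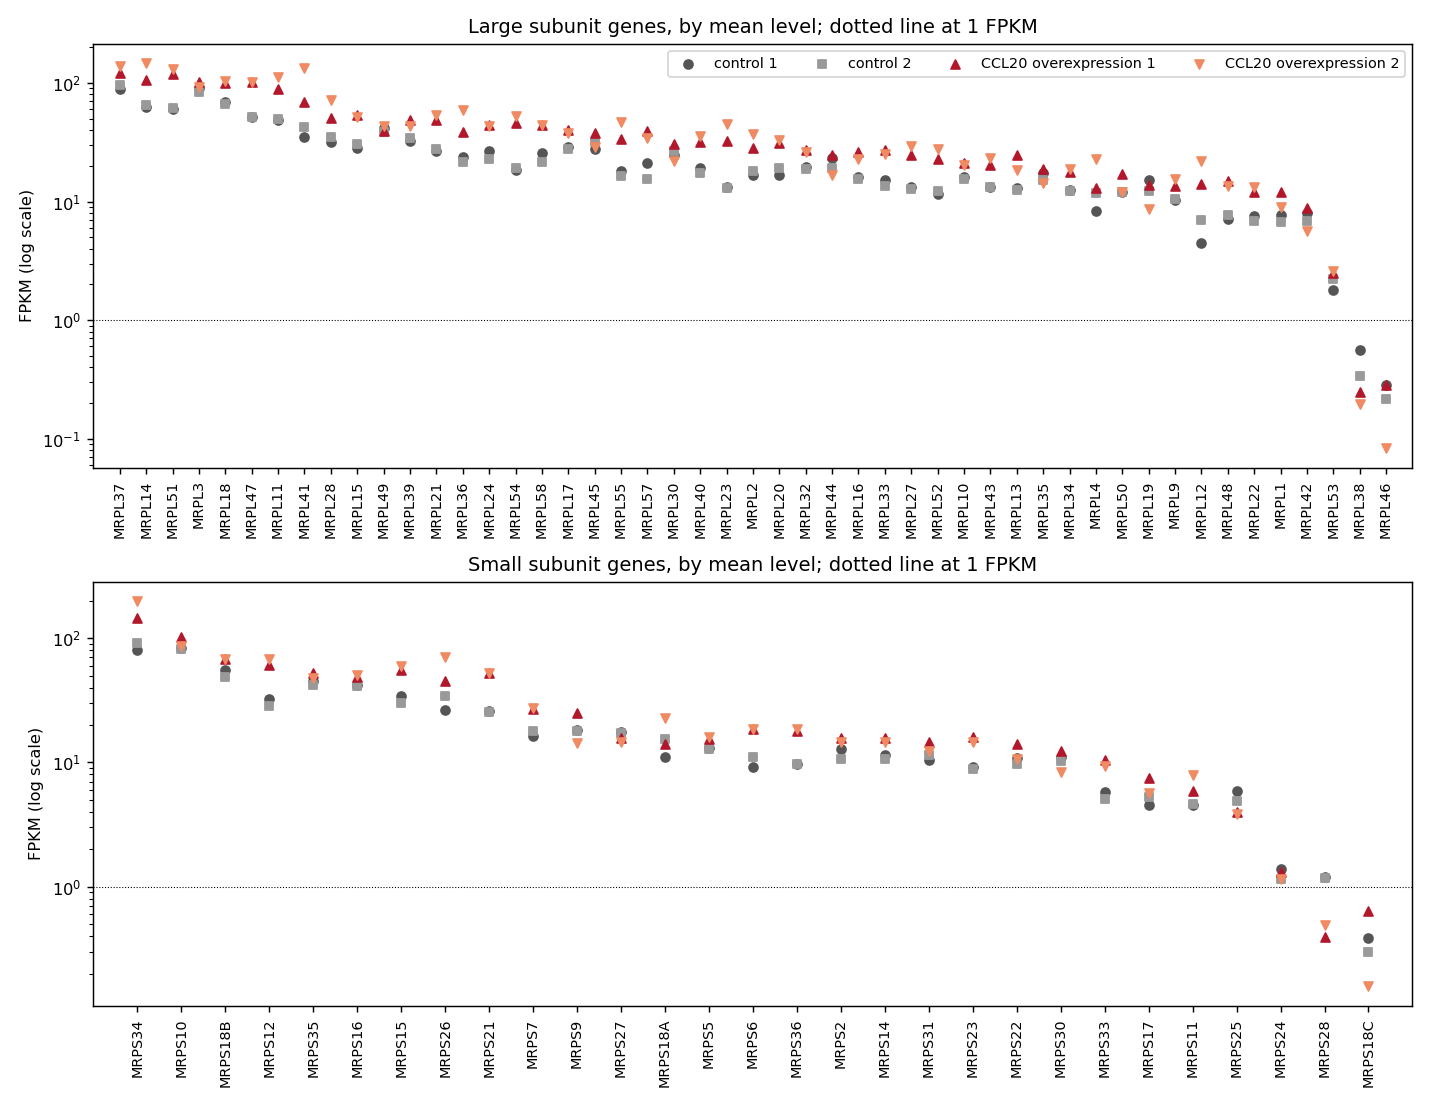
FPKM of each of the 78 members in each library on a log axis, large subunit above and small subunit below, ordered by mean level. The 6 members under 3 FPKM stand apart at the right, and for most others both overexpression points lie above both control points.

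The order of levels among the members was much the same in every library. The rank correlation of FPKM over the 74 tested members was 0.98 between the controls, 0.96 between the overexpression libraries and 0.88 to 0.95 across groups, a description over genes that share libraries and gene lengths. Spread between replicates was larger with overexpression. The median absolute log2 difference between replicates was 0.24 in the overexpression pair and 0.12 in the control pair, on TMM-scaled counts. Overexpression replicate 2 was above replicate 1 in 48 of the 74 members, and this difference had a rank correlation of 0.68 with the members' log2 fold change and of -0.46 with their mRNA length. Replicate 2 was thus the higher of the pair mostly where the change between groups was large.

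Members at the bottom were those that share most of their mRNA with another annotated gene. The 6 members under 3 FPKM share 52.3% to 85.7% of the annotated mRNA with exons of another gene, and among the 65 members sharing under 20% the lowest mean was 4.66 FPKM (MRPS25). MRPS24 shares 85.7%, with the read-through model URGCP-MRPS24, and stood at 1.40 and 1.16 FPKM in the controls and 1.32 and 1.16 with overexpression. MRPS18C shares 78.9%, with ABRAXAS1 on the opposite strand, and had 26 and 26 counts against 48 and 13. MRPL46 shares 71.1% (25 and 25 counts against 28 and 9), and MRPL38 67.8% (28 and 22 counts against 14 and 12). MRPS28 shares 55.4% (30 and 38 counts against 11 and 15). MRPL53, which shares 52.3% with CCDC142, had 1.79 and 2.21 against 2.52 and 2.602 FPKM. A counter that sets aside reads falling on 2 genes would leave few reads for such members, but the counting mode is not given in the sources used here, and its part in these levels was not tested. Sharing did not always go with a low level. MRPL12 shares 68.2% with the read-through model AC139530.2 and MRPS18A 56.9% with RSPH9 on the opposite strand, and their means were 11.9 and 15.8 FPKM.

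**Figure D2:**
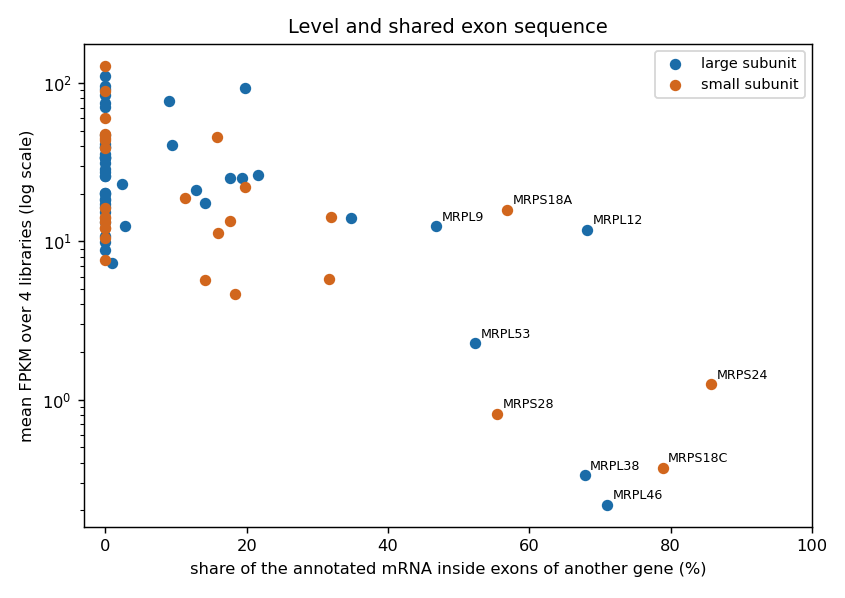
Mean FPKM over the 4 libraries on a log axis against the share of each member's annotated mRNA that lies inside exons of another gene. Members sharing 45% or more are named, and 6 of the 8 that share at least 50% lie under 3 FPKM.

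MRPL38, MRPL46, MRPS18C and MRPS28 did not reach a mean of 1 FPKM and were not tested. Fitted without that filter, their log2 fold changes were -0.74, -0.22, 0.45 and -1.16, and none passed (edgeR adjusted p = 0.452, 0.810, 0.623 and 0.103). None of the 74 tested members had a group mean under 1 FPKM, so no member entered through one group alone.

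With CCL20 overexpression 52 of the 74 tested members were higher and 0 lower (edgeR, adjusted p under 0.05), while over all 12168 genes tested 16.5% were higher and 15.7% lower. At an unadjusted p under 0.05 there were 60 higher and 0 lower, and DESeq2 called the same 52 genes higher and 0 lower. The median log2 fold change of the members was 0.85, against 0.00 for all genes tested, and 33 of the calls were rises of 2-fold or more. Over all 12168 genes tested 825 were called with such a rise. The adjusted p of the 52 lay between 0.00433 and 0.0482, and the smallest change called was 0.50, in MRPS5. On TMM-scaled counts both overexpression libraries were above both controls in 64 members and below them in 1, with 9 overlapping; over all genes tested 35.8% were above and 35.8% below. Together the tested members took 0.431% and 0.424% of the counts in the controls and 0.630% and 0.661% with overexpression. In bulk RNA more cells of one kind and more mRNA per cell cannot be told apart.

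In the large subunit 37 of 47 tested members rose and 0 fell, with a median log2 fold change of 1.02. The largest rise was in MRPL12 (GRCh38 chromosome 17, 81703357 to 81707526, plus strand), which forms the flexible stalk that recruits elongation factors. It had 4.48 and 7.03 FPKM in control replicates 1 and 2 and 14.0 and 22.03 with overexpression, from 63, 129, 221 and 382 counts (log2 fold change 1.85, SE 0.33, edgeR adjusted p = 0.00659). Both overexpression libraries were above the controls, and these counts rest on a gene that shares most of its mRNA with a read-through model. MRPL10, which anchors MRPL12 to the ribosome, had 16.0 and 15.6 against 20.97 and 20.2 FPKM and rose by 0.59 (SE 0.16, edgeR adjusted p = 0.0275). The difference between these genes was not tested, and corrected for mRNA length neither passed (MRPL12 1.02 and MRPL10 0.13, edgeR adjusted p = 0.0763 and 0.646). MRPL11, at the base of the stalk, rose by 1.23 from 48.9 and 50.1 to 89.4 and 111 FPKM.

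MRPL23 (chromosome 11, 1947278 to 1984522, plus strand), a protein of the rim of the exit tunnel, came next, with 13.3 and 13.0 FPKM in the controls and 32.2 and 45.3 with overexpression (log2 fold change 1.77, SE 0.22, edgeR adjusted p = 0.00433). Among the proteins found only in mitochondria, MRPL41 had 35.0 and 42.2 FPKM in the controls and 69.6 and 134 with overexpression, the 2 overexpression libraries lying almost 2-fold apart (log2 fold change 1.62, SE 0.32, edgeR adjusted p = 0.00913). MRPL54 went from 18.6 and 19.3 to 45.8 and 53.1 FPKM (1.59, SE 0.19, edgeR adjusted p = 0.00433). MRPL55 went from 18.0 and 16.5 to 33.5 and 46.9 FPKM (1.44, SE 0.22, edgeR adjusted p = 0.00509). MRPL36, a short protein of the bacterial type, went from 23.7 and 21.7 to 38.3 and 58.9 FPKM (1.32, SE 0.25, edgeR adjusted p = 0.00793). In each of these genes the lower overexpression library exceeded the higher control by more than the controls differed from each other. In MRPL41 and MRPL36 this gap was smaller than the difference between the overexpression libraries, and in MRPL23, MRPL54 and MRPL55 it was larger.

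The large subunit also held genes with values near 0 that did not pass the test. MRPL19 had 15.1 and 12.4 FPKM in the controls and 13.8 and 8.71 with overexpression (log2 fold change -0.09, SE 0.22, edgeR adjusted p = 0.766). MRPL44, MRPL42 and MRPL35 had log2 fold changes of 0.16, 0.16 and 0.22 (edgeR adjusted p = 0.583, 0.578 and 0.359). In all 4 the groups overlapped. MRPL3 and MRPL4, proteins of the bacterial type, had log2 fold changes of 0.35 (SE 0.15, edgeR adjusted p = 0.113) and 1.04 (SE 0.30, edgeR adjusted p = 0.0333), the second from 8.35 and 11.8 against 13.1 and 22.7 FPKM.

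In the small subunit 15 of 27 tested members rose and 0 fell, with a median log2 fold change of 0.63. MRPS12 (chromosome 19, 38930548 to 38933162, plus strand), of the decoding centre, rose most, from 32.3 and 28.5 FPKM in the controls to 61.0 and 67.8 with overexpression (log2 fold change 1.29, SE 0.18, edgeR adjusted p = 0.00434). MRPS34, the most abundant member, rose by 1.22 (SE 0.22, edgeR adjusted p = 0.00671). MRPS21 went from 26.1 and 25.5 to 51.9 and 51.9 FPKM (1.21, SE 0.16, edgeR adjusted p = 0.00433), with replicates so close that the groups are separated by far more than their spread. MRPS26 had 26.4 and 34.5 against 44.9 and 70.1 FPKM (1.13, SE 0.27, edgeR adjusted p = 0.0164). MRPS36 had 9.65 and 9.77 against 18.0 and 18.6 FPKM (1.12, SE 0.19, edgeR adjusted p = 0.00572). This protein carries a ribosomal name but is now known as a subunit of the 2-oxoglutarate dehydrogenase complex. MRPS6 had 9.11 and 11.1 against 18.4 and 18.4 FPKM (1.07, SE 0.18, edgeR adjusted p = 0.00577).

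MRPS25 and MRPS27 were at the other end of the small subunit. MRPS25 had 5.92 and 4.90 FPKM in the controls and 3.97 and 3.84 with overexpression, below both controls, and did not pass the test (log2 fold change -0.26, SE 0.19, edgeR adjusted p = 0.305). MRPS27, a pentatricopeptide repeat protein, had 17.6 and 17.1 against 15.7 and 14.7 FPKM (log2 fold change 0.01, SE 0.16, edgeR adjusted p = 0.960). Its FPKM values, scaled by total count, lie lower with overexpression and its TMM-scaled counts overlap. MRPS30 and MRPS24 had log2 fold changes of 0.15 and 0.16 (edgeR adjusted p = 0.566 and 0.706). MRPS2 and MRPS7, of the bacterial type, rose by 0.58 and 0.86 (edgeR adjusted p = 0.0415 and 0.00852).

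The 3 MRPS18 paralogs were far apart in level. MRPS18B rose by 0.58 (SE 0.16, edgeR adjusted p = 0.0314). MRPS18A had 10.99 and 15.5 FPKM in the controls and 14.0 and 22.9 with overexpression (0.69, SE 0.30, edgeR adjusted p = 0.105), though it passed without the filter on low values and with the replicate block (edgeR adjusted p = 0.0122 and 0.00439), and MRPS18C was under 1 FPKM in all 4 libraries. MRPS18A and MRPS18C share most of their mRNA with genes on the opposite strand, so these levels are uncertain.

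**Figure D3:**
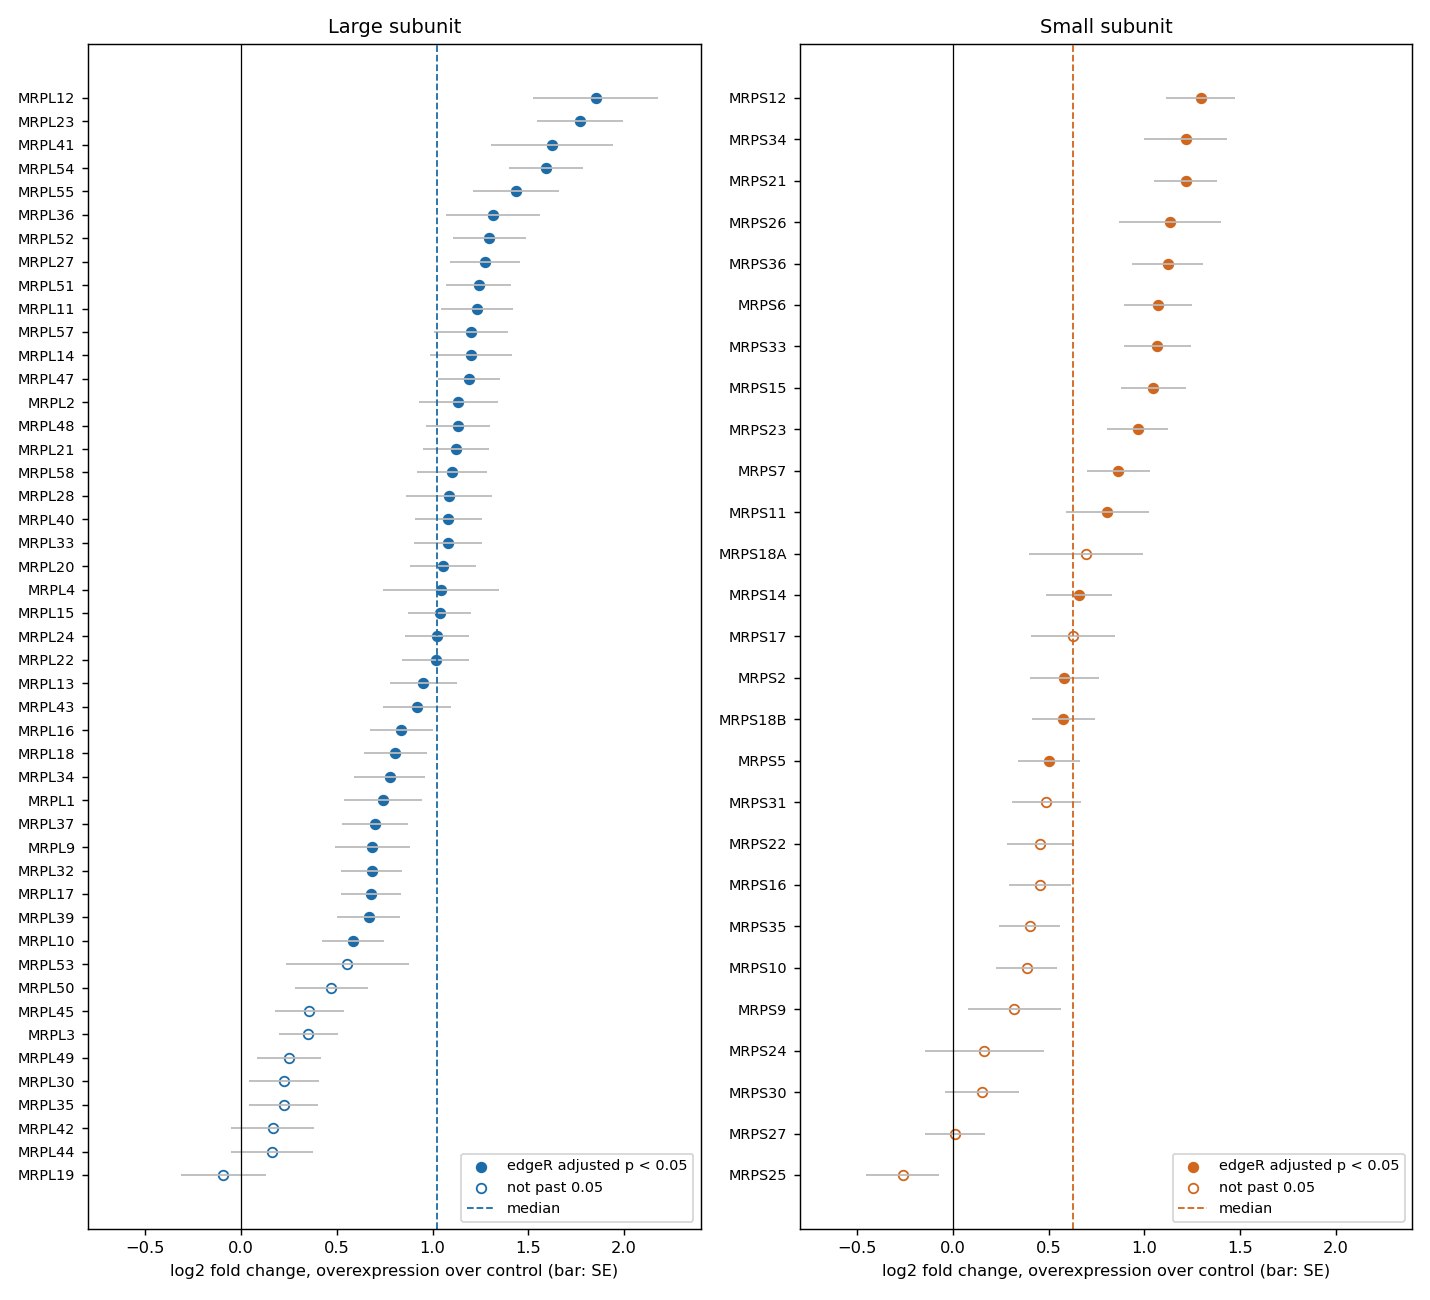
Log2 fold change with its SE for each of the 74 tested members, in order, with filled points past an edgeR adjusted p of 0.05 and dashed lines at the subunit medians of 1.02 and 0.63. Filled points make up 37 of 47 large and 15 of 27 small subunit members, and only MRPL19 and MRPS25 lie below 0.

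Between the subunits, the summed level of the tested large subunit genes was 1202 and 1200 FPKM in the controls and 1902 and 2114 with overexpression. For the small subunit the sums were 609 and 609 FPKM in the controls and 880 and 934 with overexpression. The ratio of large to small was 1.97 in both controls and 2.16 and 2.26 in overexpression replicates 1 and 2, so the ratio was higher in both overexpression libraries and the overexpression pair was not as close as the controls. The subunit medians of log2 fold change differed by 0.40, and the difference between subunits was not tested. In structures of the human mitoribosome the proteins of MRPS30 and MRPS18A sit in the large subunit. Moving these genes there gave ratios of 2.08 and 2.10 in the controls and 2.26 and 2.38 with overexpression, with 37 of 49 large and 15 of 25 small subunit genes higher.

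**Figure D4:**
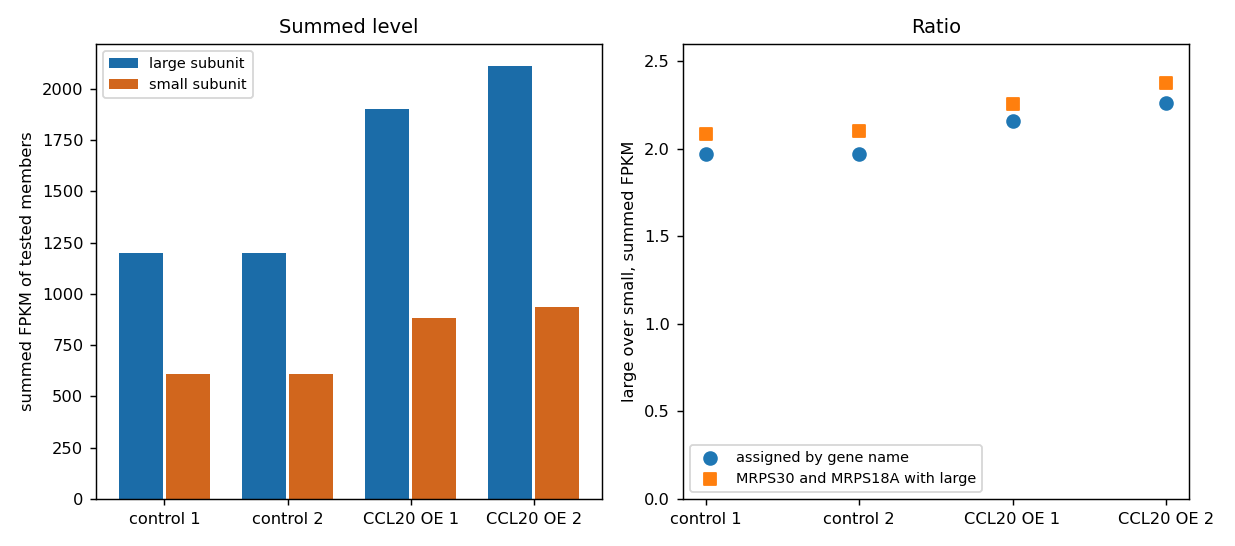
Summed FPKM of the tested large and small subunit genes in each library, and the ratio of the sums with genes assigned by name or with MRPS30 and MRPS18A counted as large. Both overexpression libraries lie above both controls in each sum and under both assignments of the ratio, at 2.16 and 2.26 against 1.97 by name.

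The number in the name is a rough guide to ancestry. Low numbers are of the bacterial type, and most high numbers, but not all, belong to proteins found only in mitochondria. Of tested genes with low numbers 34 of 43 rose (median log2 fold change 0.84), and of those with high numbers 18 of 31 (median 0.92). Within the large subunit these were 24 of 28 (median 1.02) and 13 of 19 (median 1.08). Within the small subunit 10 of 15 rose (median 0.66) and 5 of 12 (median 0.47). The small subunit genes with high numbers, among them MRPS25, MRPS27, MRPS30 and MRPS24, had the smallest median of the 4 classes without a length correction and with that for mRNA length, described next. With the exonic and coding length corrections small subunit genes with low numbers had a smaller one (0.26 against 0.48, and 0.30 against 0.32).

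Members with short mRNAs had larger log2 fold changes than those with long mRNAs. The rank correlation of log2 fold change with annotated mRNA length was -0.60 over the 74 tested members, a description over genes that share the 4 libraries. The subunits differ in length too, with medians of 1234 nt for the large and 1500 nt for the small subunit. Among coding genes of 900 to 1200 nt that are no members the median log2 fold change was 0.89, with 71.6% of them higher, against 0.93 for 12 large and 1.07 for 5 small subunit genes. Between 1200 and 1800 nt it was 0.60 for the 1330 other coding genes, of which 44.6% were higher, 1.04 for the 15 large subunit genes (12 higher) and 0.58 for the 11 small subunit genes (7 higher). At 1800 nt and above it was -0.17 for the 8267 other genes, 0.25 for 9 large and 0.46 for 9 small subunit genes. That bracket has no upper limit, and members were not matched in length to the other genes within it. Below 700 nt the 6 large subunit genes had a median of 1.38 and the other genes 1.21. Between 700 and 900 nt the 5 large subunit genes had a median of 1.06 and the other genes 1.09, and the 2 small subunit genes there, MRPS24 and MRPS33, had 0.16 and 1.07. Differences between members and other genes of the same bracket were not tested.

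In a fit that removes the dependence on mRNA length in each library 7 of the 74 members were higher and 0 lower, against 3.63% higher and 3.19% lower of 10571 coding genes. At this setting the medians were 0.29 for the large and 0.16 for the small subunit, and 58 of the 74 values were above 0. So were 5586 of the 10571 values of coding genes. Of the 52 members called without the correction, 6 were called with it, and 4 had values below 0 that did not pass (MRPL18 -0.03, MRPL32 -0.12, MRPL34 -0.14 and MRPL39 -0.10, named after their values were seen). The 7 were MRPS23 (log2 fold change 1.46, SE 0.15, edgeR adjusted p = 0.00661), MRPL22 (1.11, SE 0.17, edgeR adjusted p = 0.0127), MRPL57 (1.01, SE 0.19, edgeR adjusted p = 0.0235), MRPS11 (1.01, SE 0.22, edgeR adjusted p = 0.0329), MRPL42 (0.84, SE 0.18, edgeR adjusted p = 0.0319), MRPL23 (0.79, SE 0.17, edgeR adjusted p = 0.0346) and MRPL11 (0.71, SE 0.16, edgeR adjusted p = 0.0379). MRPS23 had 9.19 and 8.87 FPKM in the controls and 15.9 and 14.7 with overexpression. MRPL22 had 7.60 and 6.86 against 12.1 and 13.2 FPKM, MRPL57 had 21.1 and 15.6 against 39.1 and 34.2, and MRPS11 had 4.52 and 4.64 against 5.90 and 7.91. In these 4 genes both overexpression libraries lay above both controls, whereas MRPL42 had 8.003 and 6.81 against 8.90 and 5.60 FPKM, with overlap, and was not called without the correction.

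Of these 7 genes 5 have an annotated mRNA over 2000 nt, as do 15 of the 74 tested members, and the coding sequences of these 5 are short. For MRPS23 (chromosome 17, 57834781 to 57850056, minus strand) the mRNA is 5621 nt and the coding sequence 570 nt, and for MRPL42 they are 8251 and 426 nt. The other 3 are MRPS11 (3644 and 582 nt), MRPL22 (3176 and 618 nt) and MRPL57 (2246 and 306 nt). Whether these cells use the long annotated form was not tested. Corrected by coding length instead, a choice made after the data were seen, 7 members were higher and 1 lower, against 3.12% and 4.14% of coding genes, and only MRPL23 was among the higher genes of both corrections. The others were MRPL2, MRPL12, MRPL15, MRPL47, MRPL54 and MRPS15, and the lower one was MRPS25 (log2 fold change -0.82, edgeR adjusted p = 0.0428). MRPL23 was the 1 member past the threshold in all 4 of the uncorrected, mRNA-length, exonic-length and coding-length fits, where its log2 fold changes were 1.77, 0.79, 1.41 and 1.15. The exonic length, which counts every annotated exon, gave 36 members higher and 0 lower. Over all 12168 genes tested this fit gave 1211 higher (9.95%) and 721 lower.

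**Figure D5:**
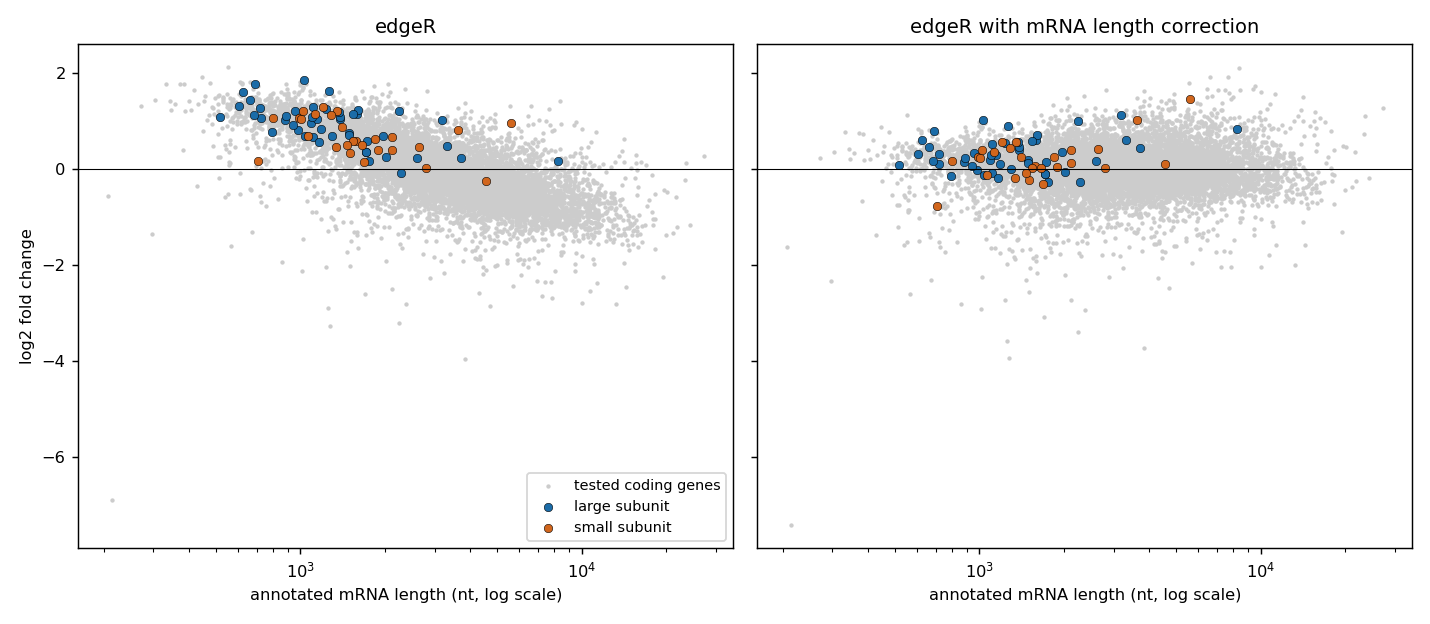
Log2 fold change of each tested member (coloured) and each tested coding gene (grey) against annotated mRNA length on a log axis, without the mRNA length correction on the left and with it on the right. Members lie within the band of coding genes on the left, at a rank correlation with length of -0.60, and centre near 0.22 on the right.

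Promoters of the members were read from RefSeq (GRCh38.p14; 250 bases before to 50 after the start), where 69 of the 78 genes had one. They were searched on both strands for the core motifs of factors known to bind promoters of nuclear mitochondrial genes, NRF1 (GCGCANGCG), ETS factors such as GABPA (CCGGAAGT) and YY1 (AAGATGGCG), and for CCAAT and TATAAA. The YY1 core was in 18.8% of member promoters and in 5.12% of the 8484 promoters of tested coding genes. It was in 19.0% of the large and 18.5% of the small subunit promoters. For the NRF1 core the shares were 20.3% and 18.1%, with 26.2% in the large and 11.1% in the small subunit. The ETS core was in 17.4% against 10.9%, with 23.8% in the large and 7.41% in the small subunit. CCAAT was in 33.3% against 43.3%, and TATAAA in 4.35% against 7.57%. A match is a description of letters, not a bound site. The promoters of MRPL22, MRPL36 and MRPL52 are shown as 3 of the 5 that carry cores of 2 of these factors, the others being MRPL20 and MRPL38, and that of MRPS34 because it is the most abundant member; motif matches are in capitals, written 5′ to 3′ on the gene's strand.
MRPL22: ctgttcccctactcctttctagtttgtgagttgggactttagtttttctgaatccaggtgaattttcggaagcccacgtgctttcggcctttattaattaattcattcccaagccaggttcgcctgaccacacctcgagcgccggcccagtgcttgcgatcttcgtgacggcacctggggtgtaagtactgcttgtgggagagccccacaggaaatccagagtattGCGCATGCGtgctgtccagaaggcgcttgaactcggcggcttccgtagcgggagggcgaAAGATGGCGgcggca
MRPL36: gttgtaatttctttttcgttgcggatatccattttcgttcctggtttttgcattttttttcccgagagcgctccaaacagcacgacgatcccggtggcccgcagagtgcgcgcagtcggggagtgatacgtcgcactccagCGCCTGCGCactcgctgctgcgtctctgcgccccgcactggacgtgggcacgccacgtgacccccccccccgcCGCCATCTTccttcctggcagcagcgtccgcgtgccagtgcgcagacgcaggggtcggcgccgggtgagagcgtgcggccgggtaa
MRPL52: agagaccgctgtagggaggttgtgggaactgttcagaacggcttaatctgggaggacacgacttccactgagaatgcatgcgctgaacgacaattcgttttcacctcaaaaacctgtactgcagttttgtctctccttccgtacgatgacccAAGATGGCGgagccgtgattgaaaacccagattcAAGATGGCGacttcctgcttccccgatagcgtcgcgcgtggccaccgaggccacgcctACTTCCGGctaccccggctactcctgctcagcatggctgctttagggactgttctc
MRPS34: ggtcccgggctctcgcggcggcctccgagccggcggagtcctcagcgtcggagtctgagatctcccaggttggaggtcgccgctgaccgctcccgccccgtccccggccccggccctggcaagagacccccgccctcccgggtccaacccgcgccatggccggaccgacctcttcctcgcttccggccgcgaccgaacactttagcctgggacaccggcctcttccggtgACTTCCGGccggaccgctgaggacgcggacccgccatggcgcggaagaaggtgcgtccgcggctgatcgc
They lie at chr5:154940823-154941122 (plus strand), chr5:1799788-1800087 (minus), chr14:22829637-22829936 (plus) and chr16:1773085-1773384 (minus). MRPL22 and MRPL36 hold an NRF1 and a YY1 core, MRPL52 an ETS core and 2 YY1 cores, and MRPS34 an ETS core. MRPL52, a large subunit protein found only in mitochondria, had 11.5 and 12.2 FPKM in the controls and 22.7 and 27.5 with overexpression (log2 fold change 1.30, SE 0.19, edgeR adjusted p = 0.00476). Uncorrected, MRPL22 rose by 1.02 (SE 0.18, edgeR adjusted p = 0.00638). MRPL52 was named for its promoter after its values were seen.

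A start site shared head to head with another coding gene within 1000 bases was annotated for 19 members, 24.4% of the 78, against 12.5% of the coding genes tested. These were 16 of the 49 large and 3 of the 29 small subunit genes. Of 15 tested partners 4 rose and 0 fell, with a median log2 fold change of 0.41, beside 16.5% higher over all genes tested. The 4 were NDUFS6 and NDUFB5, subunits of respiratory complex I next to MRPL36 and MRPL47, PSMA2, a proteasome subunit next to MRPL32, and MRPS11, itself a member, whose start lies 34 bases from that of MRPL46. Starts here are those of the GENCODE 29 gene models. For MRPL36, on the minus strand, this is 1801366, while its RefSeq promoter shown above lies at 1799788 to 1800087. Its RefSeq start is thus further from NDUFS6, outside the limit of 1000 bases. NDUFS6 rose by 1.54 (edgeR adjusted p = 0.00851) beside 1.32 for MRPL36, and NDUFB5 by 0.93 (edgeR adjusted p = 0.0250) beside 1.19 for MRPL47. EME2, next to MRPS34, had a log2 fold change of -0.67 (edgeR adjusted p = 0.0727) beside 1.22 for MRPS34. Corrected for mRNA length, MRPS11 was the 1 partner higher and EME2 the 1 lower (-1.39, edgeR adjusted p = 0.0153), and the calls of NDUFS6, NDUFB5 and PSMA2 ended (edgeR adjusted p = 0.121, 0.706 and 0.439). These partners were named after their values were seen.

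Of 5 mitoribosome subunits that carry other names 4 rose, beside 16.5% higher over all genes tested. GADD45GIP1, a large subunit protein, had 48.5 and 38.02 FPKM in the controls and 97.6 and 112 with overexpression (log2 fold change 1.49, SE 0.20, edgeR adjusted p = 0.00433), and its call held when mRNA length was corrected for (1.06, edgeR adjusted p = 0.0163). AURKAIP1, CHCHD1 and DAP3, all of the small subunit, rose by 1.36, 1.22 and 0.59, and their corrected values did not pass. PTCD3, also of the small subunit and with an annotated mRNA of 6734 nt, had a log2 fold change of -0.01 (edgeR adjusted p = 0.982).

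Genes that act on or with the mitoribosome were also followed. Of 12 mitochondrial translation factors 3 rose and 0 fell, with a median log2 fold change of 0.13, beside 16.5% higher over all genes. They were TSFM and TUFM, the elongation factor pair that delivers aminoacyl-tRNA, at 0.84 and 0.68, and the initiation factor MTIF3 at 0.78 (edgeR adjusted p = 0.0131, 0.0246 and 0.0176). Corrected for mRNA length these 3 calls ended (edgeR adjusted p = 0.0854, 0.173 and 0.932), and the recycling factor MRRF, named after its value was seen, was called higher (0.82, edgeR adjusted p = 0.0232). Of 25 tested genes of mitoribosome assembly and rRNA modification 8 rose and 0 fell, with a median of 0.42. MRM3, a methyltransferase of the large rRNA, rose by 1.17 and MALSU1, an assembly factor of the large subunit, by 0.95, and both also passed with the mRNA length correction (edgeR adjusted p = 0.0432 and 0.0130). RPUSD3, a pseudouridine synthase family member, and MPV17L2 rose by 1.11 and 0.79 and did not pass with it. In total, 3 of the 25 were higher with it, beside 3.63% of coding genes at that setting. The third was TRUB2, named after its value was seen.

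Of 14 genes of mitochondrial RNA and membrane insertion 4 rose and 1 fell, with a median of 0.25, beside 16.5% higher over all genes tested. SLIRP, the partner of the mRNA-binding protein LRPPRC, rose by 1.23, HSD17B10 and TRMT10C, subunits of mitochondrial RNase P, by 1.10 and 0.78, and TACO1, named after its value was seen, by 0.82. The catalytic subunit of that RNase P, KIAA0391 (also called PRORP), fell by 0.87 on the log2 scale from 2.24 and 2.45 to 1.17 and 1.06 FPKM (edgeR adjusted p = 0.0166). Corrected for mRNA length, the calls of SLIRP, HSD17B10, TRMT10C and TACO1 ended (edgeR adjusted p = 0.491, 0.447, 0.273 and 0.603) and KIAA0391 was the 1 gene called, lower (edgeR adjusted p = 0.0333). Of 7 tested regulators of nuclear mitochondrial genes 0 rose and 2 fell, beside 15.7% lower over all genes, the ETS factor GABPA (-0.79, edgeR adjusted p = 0.0427) and the coactivator PPRC1 (-0.59, edgeR adjusted p = 0.0395). Their annotated mRNAs are 4967 and 5330 nt, and neither passed with the mRNA length correction. With it MYC, at -0.09 without it, was the 1 regulator called (-0.73, edgeR adjusted p = 0.0299), and it is named after its value was seen. NRF1 and YY1 had log2 fold changes of -0.05 and -0.14 (edgeR adjusted p = 0.862 and 0.547). PPARGC1A and PPARGC1B, also listed, did not reach a mean of 1 FPKM and were not tested. PPARGC1B, with an annotated mRNA of 10568 nt, had 1.49 and 1.22 FPKM in the controls and 0.72 and 0.51 with overexpression. PPARGC1A had 0.28 and 0.28 against 0.25 and 0.15 FPKM.

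Other families of short mRNAs gave a scale for these counts. Of 82 tested cytosolic ribosomal protein genes 74 rose (median log2 fold change 1.24, median mRNA 858 nt), and of 33 tested complex I subunits 30 rose (median 1.08, median mRNA 958 nt). With the mRNA length correction the medians were 0.38 and 0.33, against 0.22 for the members. At this setting 17 of 82 cytosolic ribosomal protein genes, 6 of 33 complex I subunits and 7 of 74 members were higher. The share over coding genes was 3.63% higher and 3.19% lower, and 1 cytosolic ribosomal protein gene was lower. All 3 families were measured in the same 4 libraries, and 34 of the members have 75 annotated pseudogenes, whose part in the counts was not tested.

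Calls of the members depended on single libraries. Without control replicate 1 or 2 the number of members higher was 11 or 19, and without overexpression replicate 1 or 2 it was 60 or 67. The share of all tested genes called higher moved with it, at 2.61%, 3.74%, 30.8% and 26.2% in the same order. With a library left out the spread comes from the pair of the other group alone, and the overexpression pair varied more.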

How the data were processed

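Polyadenylated RNA of 4 CAL27 libraries was analysed, 2 per group, made from 1.5 µg of RNA each. Per the submitters' processing notes reads were aligned and counted with HISAT2 and HTSeq 0.13.5 on GRCh38; neither the annotation nor the counting mode and strand is given in the sources used here. The deposited counts are whole reads per gene, per the file headers. The authors' FPKM values scale these counts by gene length and by the total of each library.

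The 12168 genes whose mean reached 1 FPKM were tested with edgeR 4.0.16 (R 4.3.3; quasi-likelihood, TMM, Benjamini-Hochberg adjustment over all genes tested, threshold 0.05, two-sided). Replicates differed by more than counting noise (mean chi-square per gene 6.45 in the control and 38.0 in the overexpression pair), so none was counted as a duplicate. mRNA length is the median of the principal transcripts in GENCODE 29, to which all 29437 identifiers matched. The length correction is an offset from a natural spline with 5 degrees of freedom in log2 mRNA length, fitted per library over coding genes. The same was done with coding length over coding genes, and with exonic length over all 12168 genes tested. An exact permutation test of 2 against 2 libraries cannot go below 0.333 and was not used. DESeq2 1.42.0, limma 3.58.1, other scalings and filters, a fit with the replicate number as a block and fits without each library were alternatives. The main edgeR fit, the spline correction with exonic length, DESeq2 and limma on log2(FPKM + 1) were tested on simulated data. The other settings were not.

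The members and lists were chosen with earlier results of these data known. Per subunit the text names the 6 largest and 4 smallest log2 fold changes, the 3 highest levels, members called lower or called with the mRNA length correction, landmark and untested members, and up to 4 genes of each other list by p.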

Additional observations from a re-analysis of the deposited data

How the results depend on the processing

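DESeq2, DESeq2 size factors, no filter and the replicate block kept the direction of all 36 named members that were tested, and the last 2 added a call of MRPS18A (edgeR adjusted p = 0.0122 and 0.00439). Medians of large and small subunit log2 fold change were 0.82 and 0.43 on total counts, 0.52 and 0.15 on a TPM scale, 0.92 and 0.55 at a mean FPKM of at least 5, 0.74 and 0.37 by limma on log2(FPKM + 1), and 0.80 and 0.41 by limma on log2(FPKM + 0.1). They were 0.29 and 0.16 with the mRNA, 0.65 and 0.37 with the exonic and 0.52 and 0.30 with the coding length correction, and their difference was then 0.13, 0.28 and 0.22. Members sharing under 20% of the mRNA gave 0.58 for the small subunit. Total count scaling moved the median of all genes by -0.20 and the TPM scale by -0.49, so member medians stood 0.85 above it on both.

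Large and small subunit members higher numbered 19 and 6 on the TPM scale, 5 and 2 with the mRNA and 6 and 1 with the coding length correction, and 9 small subunit members passed an adjusted p under 0.01. On the TPM scale 500 of all 12168 genes tested were higher and 4516 lower. Of members lower there was 1 on the TPM scale (MRPS25) and 1 with the coding length correction. Without 1 library each, large subunit counts were 9 to 44, small subunit counts 2 to 23, members lower 0 to 1 (MRPL19, without overexpression replicate 1), the large median 0.89 to 1.06, the small median 0.60 to 0.66 and the difference 0.29 to 0.44. With the mRNA length correction 1 to 32 members were higher without 1 library each, as 0.360% to 24.04% of coding genes were. Members lower numbered 7 without overexpression replicate 1 and 1 without replicate 2. In both fits the share of members lower was smaller than that of coding genes. The median log2 fold change of the members was 0.18 and 0.24 there.

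Replicate numbers were shared by the groups, and same-numbered libraries deviated together (correlation 0.52 over 6955 genes), but with 2 pairs and no label that defines the number this does not show pairing. With the replicate block 58 members were higher, and 18 with the block and the mRNA length correction. The block gave 23.3% higher over all genes tested, and with both it was 10.4% of coding genes.

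Among the 36 tested members named by the rule, direction changed only in ones not called in the main test. Outside the rule 4 called members went below 0 with the mRNA length correction (MRPL18, MRPL32, MRPL34 and MRPL39). With the coding length correction the called members MRPL34 and MRPS14, also outside the rule, were at -0.010 and -0.018. On total counts, the TPM scale, limma with 1 and limma with 0.1, in this order, values were -0.031, -0.31, -0.053 and -0.063 for MRPL42, -0.037, -0.32, -0.054 and -0.058 for MRPL44, -0.040, -0.33, -0.024 and -0.038 for MRPS24, -0.19, -0.48, -0.18 and -0.19 for MRPS27 and -0.046, -0.33, -0.061 and -0.069 for MRPS30. The TPM scale also gave -0.14 for MRPL3, -0.26 for MRPL35 and -0.10 for MRPS10, and the filter at 5 FPKM -0.096 for MRPS27. With the mRNA length correction MRPL3 was at -0.11, MRPL44 at -0.27, MRPS18A at -0.12, MRPS24 at -0.78, MRPS30 at -0.31 and MRPS25 at 0.10. With the exonic length correction MRPL3 was at -0.032, MRPL44 at -0.29, MRPS10 at -0.052 and MRPS24 at -0.23. With the coding length correction MRPL35 was at -0.29, MRPL42 at -0.46, MRPL44 at -0.044, MRPS10 at -0.099, MRPS24 at -0.40 and MRPS27 at -0.057. Without 1 library each, MRPL19 lay between -0.40 and 0.17, MRPL42 between -0.15 and 0.42, MRPL44 between -0.090 and 0.38, MRPS27 between -0.0023 and 0.026 and MRPS30 between -0.088 and 0.36. The cause was not tested.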
